A study of Mus musculus with 3 samples.

Results

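Ctsm, Ctsr, Ctsj, Tpbpa and Tpbpb are 5 placental genes of mouse chromosome 13, and their log ratios between spleen RNA and a common reference RNA are described here. They were chosen by gene symbol in the platform's probe annotation, which gave 47 of the 16273 probes of the table: 2 for Ctsm, 2 for Ctsr, 2 for Ctsj, 26 for Tpbpa and 15 for Tpbpb. Of these, 44 probes were measured on all 3 arrays and every gene kept at least 1. The 3 arrays form 1 group. On each, spleen cRNA was labelled red (Cy5), and cRNA of the Universal Mouse Reference RNA, a commercial pool made from cell lines, was labelled green (Cy3). Both RNAs were purchased, and both cRNAs came from a single amplification round. The labels give no strain, age, sex or treatment for either RNA. They name the same product on each array, so a p-value here reflects array-to-array spread, possibly technical, and not the spread between animals. Spleen is compared here with a pool and not with placenta, and no placental RNA was analysed here.

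Rodents carry a family of papain-type cysteine proteases, the placental cathepsins, that arose by gene duplication beside the genes of lysosomal cathepsins and are made chiefly by trophoblast, the epithelium of the placenta. Ctsm, Ctsr and Ctsj belong to this family. Tpbpa, trophoblast specific protein alpha, is the usual marker of spongiotrophoblast and its precursors in the ectoplacental cone, and Tpbpb is its close relative. Spleen is a lymphoid organ that makes abundant lysosomal cathepsins in its phagocytes, and it is not known as a source of the placental ones.

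The upstream regions are shown because the 5 genes lie in 1 gene cluster and all had negative mean ratios. Each run is the 250 bases before the annotated start in RefSeq (GRCm38.p6, minus strand, written 5′ to 3′), at chr13:61541840-61542089 for Ctsm, chr13:61164189-61164438 for Ctsr, chr13:61005926-61006175 for Ctsj, chr13:60941937-60942186 for Tpbpa, and chr13:60904848-60905097 for Tpbpb. Capitals mark CCAAT on either strand (ATTGG where it is on the other) and TTTAAA, which reads the same on both strands.
Ctsm: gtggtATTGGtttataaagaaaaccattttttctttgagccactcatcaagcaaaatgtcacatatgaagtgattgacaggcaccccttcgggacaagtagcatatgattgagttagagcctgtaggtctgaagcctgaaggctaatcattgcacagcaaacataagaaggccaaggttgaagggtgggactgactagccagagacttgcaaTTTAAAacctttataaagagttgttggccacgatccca
Ctsr: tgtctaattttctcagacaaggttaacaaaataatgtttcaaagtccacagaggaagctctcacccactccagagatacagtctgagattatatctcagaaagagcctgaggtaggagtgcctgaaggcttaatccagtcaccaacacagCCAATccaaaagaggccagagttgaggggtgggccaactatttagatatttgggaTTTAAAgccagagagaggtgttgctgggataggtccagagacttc
Ctsj: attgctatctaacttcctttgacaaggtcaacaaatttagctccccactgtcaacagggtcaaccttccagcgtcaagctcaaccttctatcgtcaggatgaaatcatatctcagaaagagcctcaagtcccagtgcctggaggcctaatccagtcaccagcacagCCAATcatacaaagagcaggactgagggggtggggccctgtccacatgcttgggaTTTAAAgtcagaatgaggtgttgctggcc
Tpbpa: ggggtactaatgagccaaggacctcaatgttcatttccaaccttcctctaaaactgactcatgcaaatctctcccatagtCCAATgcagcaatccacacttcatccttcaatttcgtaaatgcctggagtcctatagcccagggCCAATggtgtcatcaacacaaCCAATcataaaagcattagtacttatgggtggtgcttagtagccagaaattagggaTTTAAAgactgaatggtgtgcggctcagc
Tpbpb: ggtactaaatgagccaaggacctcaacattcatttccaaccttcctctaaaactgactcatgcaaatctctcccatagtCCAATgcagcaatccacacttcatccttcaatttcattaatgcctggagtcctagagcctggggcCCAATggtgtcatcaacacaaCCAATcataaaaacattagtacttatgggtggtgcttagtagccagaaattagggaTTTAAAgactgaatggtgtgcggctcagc
These letters were searched after the sequences had been seen. TTTAAA was found in all 5 regions, at -29 to -24 from the start in Ctsj, Tpbpa and Tpbpb, at -38 to -33 in Ctsm and at -45 to -40 in Ctsr, and it is present in 12.04% of 32536 RefSeq upstream regions of that length. CCAAT was found in all 5 (33.8% of all regions), 3 times each in Tpbpa and Tpbpb, and at -84 to -80 in Ctsj and -85 to -81 in both Tpbp genes. GGGTGG, searched on both strands, was in all 5 as well (28.1% of all regions), always on the gene's strand and between -74 and -52. TATAAA was found in Ctsm alone (12.3% of all regions), where each match overlaps its own reverse complement. None of the 4 motifs overlaps another. A match describes these letters and does not show a binding site.

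In a global alignment the Tpbpa and Tpbpb regions were 95.2% identical, with 8 mismatches and 4 gap positions. Ctsr and Ctsj were 66.4% identical, and Ctsm was 57.5% identical to Ctsr and 57.2% to Ctsj. Pairs of a cathepsin and a Tpbp gene ran from 55.2% (Ctsm and Tpbpa) to 60.8% (Ctsj and Tpbpb). Ctsj was closer to Tpbpb and to Tpbpa (59.1%) than to Ctsm, so the regions did not simply group by gene family. Against 1508 other upstream regions of chromosome 13, outside these gene families, the median identity of a member lay between 48.8% and 49.3% and the highest between 54.4% and 59.5%. The 59.5% was for Ctsj and lies above its identity with Ctsm and with Tpbpa. These identities are of bases before the annotated start and do not give the likeness of the transcripts. RNA of related genes may bind each other's probes, but this was not tested for Tpbpa and Tpbpb. Whether their probes tell these genes apart is therefore not known here. Probe sequences were not analysed here.

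All values are the log ratios as the authors deposited them. Neither the log base nor the order of the channels is given in the sources used here. Positive ratios are read as probably higher in spleen, because red over green is the usual order. A further reason is that marker lists of spleen cells fell on that side. Both measured B cell genes, Cr2 and Ms4a1, were positive (median 3.72). So were 4 of 5 T cell genes, Cd8a, Cd247, Cd4 and Cd3g (median of the 5, 2.24), while the other T cell gene, Cd3d, was at -0.85. All 4 of 4 red cell genes, Hba-a1, Hbb-bt, Hbb-bs and Slc4a1, were positive (median 2.70). The sample titles name the reference first, which could mean the reverse. Every array has the same dye order, and dye bias and RNA differences therefore cannot be told apart. An exact 0, deposited for 24.2% to 26.8% of the probes of an array, was read as no measurement. Arrays correlated at 0.952 to 0.969 across the 11086 probes measured on all of them, and a typical probe had an SD of 0.12 (the median). The number of arrays limits the precision, and signal over background is unknown, since no intensities were analysed here. Less RNA per cell and fewer cells of a type cannot be told apart in such RNA.

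All 3 cathepsins were on the likely reference side, and Ctsm was the farthest from 0. Ctsm is a placental cysteine protease, and its log ratio averaged over its 2 probes was -2.52 on array 1, -2.64 on array 2 and -2.68 on array 3. The arrays lay close together, and no array came near 0. The mean was -2.61 ± 0.086 (SD, n = 3), the 23rd lowest of 6077 genes tested, with a limma adjusted p of 1.66e-07. This corresponds to a 6.12-fold lower level in spleen if the base is 2 and to 13.7-fold if the logs are natural.

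The 2 Ctsm probes, which target the same gene, differed in how the arrays were ordered. Probe 491 had -2.89, -2.53 and -3.06 on arrays 1 to 3, with array 2 nearest to 0. Probe 6795 had -2.15, -2.75 and -2.31, with array 2 farthest from 0. The reversed order of the arrays cancelled in the gene mean, whose SD of 0.086 is below that of either probe (0.27 and 0.31).

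Ctsr, another placental cathepsin, had log ratios of -1.21, -1.57 and -1.63 on arrays 1 to 3 at probe 13063. The second Ctsr probe, 11103, was listed at 0 on every array and gave no measurement, so the gene rests on 1 probe. Its mean was -1.47 ± 0.23 (SD, n = 3) with a limma adjusted p of 9.60e-06, and it would be -0.74 if the values of 0 were kept. All 3 measurements were negative, with array 1 nearest to 0.

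Ctsj, which has also been named cathepsin P, had gene values of -0.96 on array 1, -1.48 on array 2 and -1.24 on array 3. Probe 5263 had -0.92, -1.34 and -1.05, and probe 5296 had -0.99, -1.62 and -1.42. Both probes put array 1 nearest to 0 and array 2 farthest from it. The gene mean was -1.22 ± 0.26 (SD, n = 3) with a limma adjusted p of 3.59e-05.

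In order of the mean ratio the cathepsins ran Ctsm, Ctsr and Ctsj from the lowest up. The values of Ctsm did not overlap those of the other two on any array, and Ctsm minus Ctsr was -1.31, -1.07 and -1.05, a mean difference of -1.14 ± 0.14 (SD, n = 3). Ctsr and Ctsj overlapped in their ranges: Ctsr minus Ctsj was -0.25, -0.09 and -0.39, a mean of -0.25 ± 0.15 (SD, n = 3). An exact sign-flip permutation test over 3 arrays cannot go below p = 0.25 (two-sided), the value both differences gave, so these orders are descriptions. Of the 5 cathepsin probes measured on all arrays, 5 passed the test and were negative, beside 36.0% of all 11086 probes tested that were called negative (adjusted p under 0.05 with limma), 32.3% called positive and 68.3% called in either direction. All 5 member genes passed, beside 70.3% of the 6077 genes tested.

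**Figure D1:**
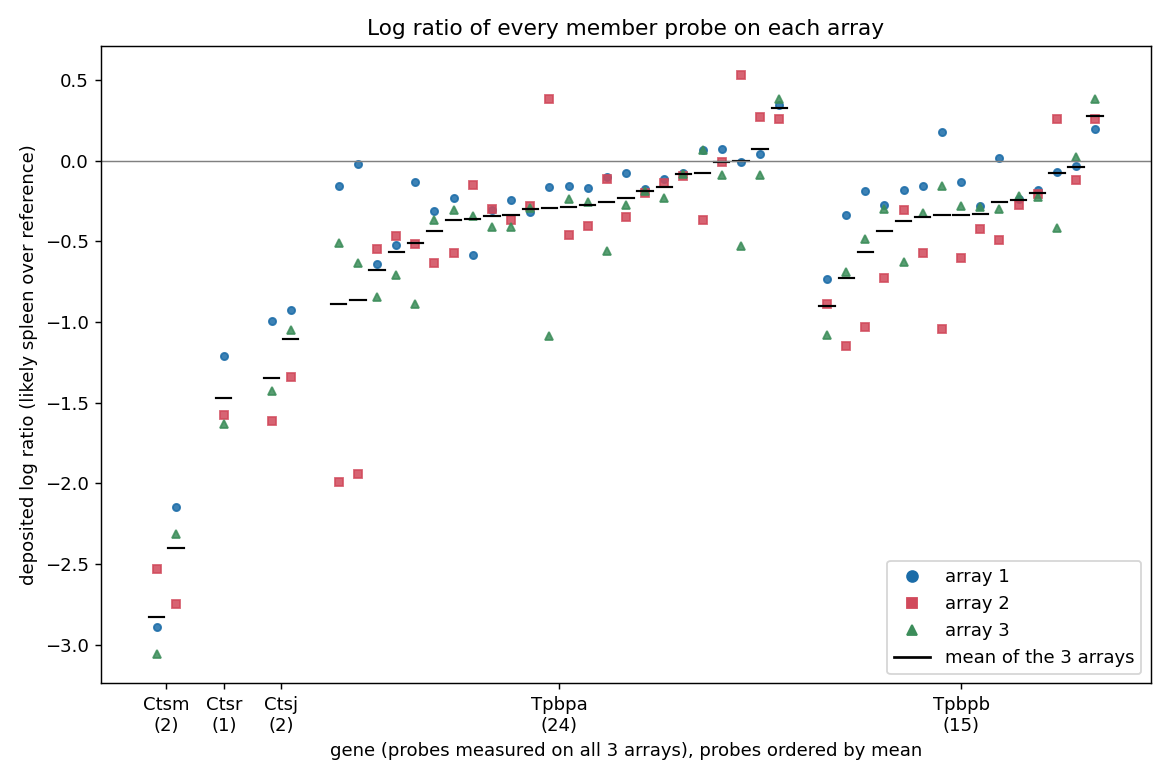
Deposited log ratio of each of the 44 member probes measured on all 3 arrays, by gene, with 1 symbol per array and a bar at the mean. The 5 cathepsin probes lie between -2.83 and -1.11 in their means, below most probes of Tpbpa and Tpbpb, and 2 Tpbpa probes have array 2 near -1.99 and -1.94 with array 1 close to 0.

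Tpbpa and Tpbpb, the trophoblast specific proteins, were also on the likely reference side but much closer to 0. Averaged over its 24 measured probes, Tpbpa had log ratios of -0.17, -0.35 and -0.37 on arrays 1 to 3. Its mean was -0.30 ± 0.11 (SD, n = 3) with a limma adjusted p of 0.00722. Array 1 was nearest to 0, and without array 3 the adjusted p was 0.0519 at a mean of -0.25.

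Averaged over 15 probes, Tpbpb had -0.16, -0.49 and -0.33. Its mean was -0.33 ± 0.16 (SD, n = 3) with a limma adjusted p of 0.00790. Array 1 was again nearest to 0, and array 2 was the farthest from it. The 2 genes overlapped: Tpbpa minus Tpbpb was -0.0044, 0.13 and -0.04, a mean of 0.03 ± 0.091 (SD, n = 3; exact sign-flip p = 1, two-sided). In base 2 these means are 1.23-fold for Tpbpa and 1.25-fold for Tpbpb, and in natural logs 1.35-fold and 1.39-fold. The call of either gene ended without moderation of the variance (adjusted p = 0.0798 for Tpbpa and 0.114 for Tpbpb) and against a 1.5-fold change in base 2, and that of Tpbpb also with 0 kept (0.0852).

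The many probes of the 2 genes did not give 1 answer. Of the 24 Tpbpa probes 15 were called negative, 1 positive and 8 did not pass, and the probe means ran from -0.89 to 0.33 with a median of -0.29. Of the 15 Tpbpb probes 10 were called negative, 1 positive and 4 did not pass, from -0.90 to 0.28 with a median of -0.34. The median of all probes tested was -0.03. Negative calls at 36.0% and positive calls at 32.3% of all probes are the background for these counts. Probes of a gene share their target and are not replicates. Each carries a different cDNA accession in the annotation, and whether they cover different parts of the transcripts is not known here.

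The lowest Tpbpb probe, 3613, was low on every array, with log ratios of -0.74, -0.89 and -1.08. Among the Tpbpa probes measured on all arrays, 16093 was the lowest after 581 and 584, which are described below. It had -0.64, -0.55 and -0.85. Probe 9853 of Tpbpa followed with -0.52, -0.47 and -0.71. In these probes all arrays were clearly negative, and the limma adjusted p was 9.78e-05 for 3613, 3.23e-04 for 16093 and 5.72e-04 for 9853. With the running median over 5 probe numbers removed, 3613 was at -0.47 (adjusted p = 0.0179).

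At the other end, probe 3734 of Tpbpa had 0.35, 0.26 and 0.38, and probe 14591 of Tpbpb had 0.20, 0.26 and 0.38. They were the 2 probes of these genes called positive, with limma adjusted p of 0.00442 and 0.0112. The call of 14591 ended without array 3 (adjusted p = 0.0807), with 0 kept (0.0546) and with the running median over 5 probe numbers removed (0.12, adjusted p = 0.150). Probe 3734 is numbered next to probe 3733 of Tpbpb, which had -0.34, -1.15 and -0.69. The pair thus differed in sign on every array although the numbers are adjacent. The Tpbpa probe annotated with the gene's RefSeq transcript, 16182, had 0.07, -0.0083 and -0.09, values on both sides of 0 that did not pass.

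The remaining probes lay between these, and several had little spread between arrays. Probe 9914 of Tpbpa had -0.07, -0.10 and -0.08 and did not pass. Probe 11475 of Tpbpa had -0.32, -0.28 and -0.30, and probe 11471 of Tpbpb had -0.18, -0.21 and -0.22. The last 2 passed the limma test with adjusted p of 0.00545 and 0.0277, and the call of 11471 ended when any 1 of the 3 arrays was left out (adjusted p from 0.0534 to 0.140). Of the 39 measured probes of both genes, 28 were negative on all arrays, 2 were positive on all arrays and 9 had mixed signs. The other 2 Tpbpa probes were measured on 2 arrays and were not tested in the main run: probe 9974 had -0.76 on array 1 and -0.62 on array 3, and probe 16092 had -0.09 on array 1 and -0.06 on array 2. With probes measured on at least 2 arrays included, 33 of 46 member probes passed (31 negative, 2 positive). They were 71.7% beside 67.5% of all 12228 probes.

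Some probes spread far more between arrays than the median probe. Probe 581 of Tpbpa had -0.15, -1.99 and -0.51, and probe 584 had -0.02, -1.94 and -0.63. Probe 583 of Tpbpb, numbered between them, had 0.18, -1.04 and -0.16. On these 3 probes array 2 was by far the lowest. Probes 581 and 584 passed with limma adjusted p of 0.0403 and 0.0448 at means of -0.89 and -0.86, which were -0.33 each without array 2, and the call of 584 then ended (adjusted p = 0.0795). Both calls ended without moderation (adjusted p = 0.313 and 0.324), with 0 kept (0.333 and 0.346) and with running medians over 5 (0.124 and 0.129) or 20 probe numbers (0.0530 and 0.0590) removed. Probe 522 of Tpbpa had -0.17, 0.38 and -1.09 and probe 3611 had -0.0075, 0.53 and -0.53, with array 2 the highest. Those 5 had an SD over 0.5.

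Probes of other genes with nearby numbers mostly moved the same way. Of the 44 member probes, 34, 35 and 34 deviated in the direction of their neighbours on arrays 1, 2 and 3. On array 2 probes 581 and 584 deviated from their own means by -1.11 and -1.08, and the median deviation of the 7 measured non-member probes within 5 numbers was -0.56 for each. Around probe 522 the neighbours deviated by 0.41 on array 2 where the probe itself deviated by 0.67. On array 1 those neighbours went the other way, at -0.30 beside 0.13 for the probe. Around probe 491 of Ctsm the neighbours deviated by 0.28 on array 2 and the probe by 0.29. Over the 44 member probes, Pearson's r between a probe's deviation and that of its neighbours was 0.753 on array 1, 0.883 on array 2 and 0.681 on array 3 (Spearman's rho 0.690, 0.757 and 0.614). These points share arrays and partly share neighbours, so no p is given, and what the probe number stands for on the array is not given in the sources used here. A running median over 5 probe numbers on either side was also removed. Unlike the neighbours above, it included member probes, so nearby probes of Tpbpa and Tpbpb entered each other's median. With it removed, 21 of the 44 probes passed (19 negative, 2 positive) in place of 32. They were 47.7% beside 61.2% of all probes under that setting. The positive calls were then 3734 and Tpbpb probe 3610, which turned from -0.08 to 0.31 (adjusted p = 0.0334). The means of Tpbpa and Tpbpb were then -0.18 and -0.15, and those of Ctsm, Ctsr and Ctsj -2.61, -1.58 and -1.32, all still called.

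**Figure D2:**
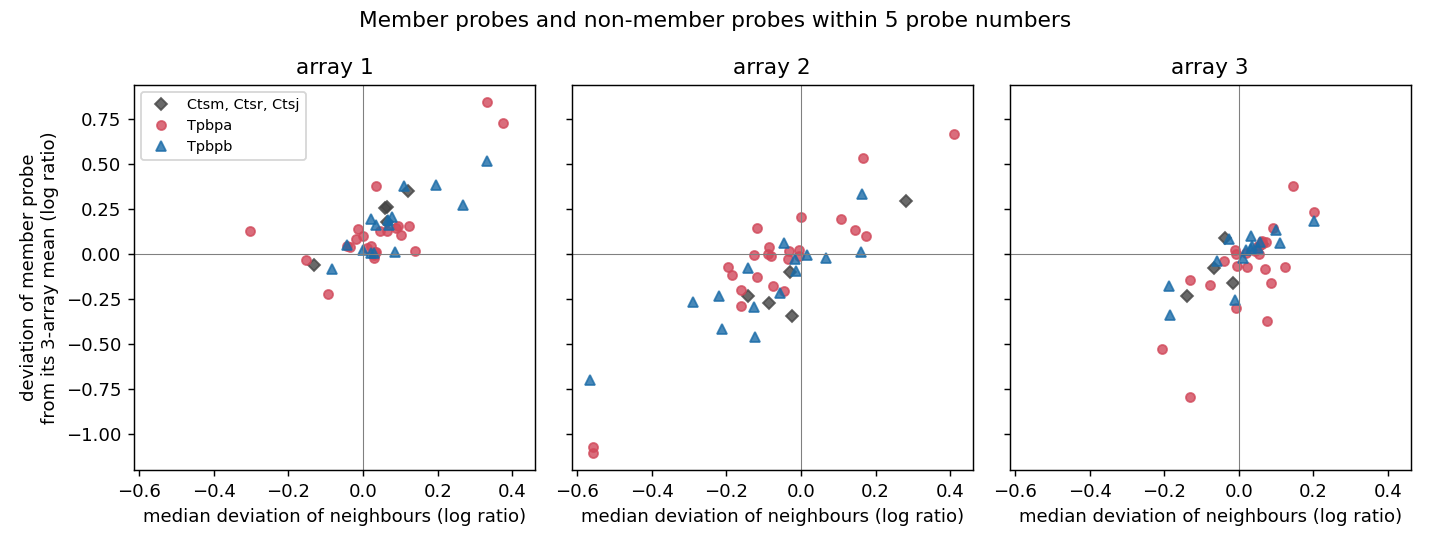
For each array, the deviation of every member probe from its own mean over the 3 arrays against the median deviation of the measured non-member probes within 5 probe numbers, both as log ratios. Points run from lower left to upper right on each array (r from 0.681 to 0.883), and the lowest points on array 2 are Tpbpa probes 581 and 584 with Tpbpb probe 583 next.

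The neighbours of these genes on chromosome 13 divided by kind. In RefSeq order the protein-coding genes run Ctla2b, Tpbpb, Ctla2a, Tpbpa, Ctsj, Ctsq, Ctsr, Cts6, Cts8, Cts7, Ctsm and Cts3. Cts3 and Cts6, both placental cathepsins, had log ratios of -1.87, -2.06 and -2.14 and of -0.95, -1.05 and -1.25. Every array was negative for both, with means of -2.02 ± 0.14 and -1.08 ± 0.15 (SD, n = 3) and limma adjusted p of 7.37e-07 and 1.67e-05. Cts7 was listed at 0 on all arrays. Ctla2a, which lies between the Tpbp genes and encodes an inhibitor that resembles a cathepsin propeptide, stood on the other side with 3.18, 2.94 and 2.84, a mean of 2.98 ± 0.17 (SD, n = 3; limma adjusted p = 2.14e-07). It is known from activated T cells. The 5 measured placental cathepsins of the cluster, 3 members and these 2, were all called negative, beside 37.1% of all 6077 genes called negative and 33.2% called positive.

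**Figure D3:**
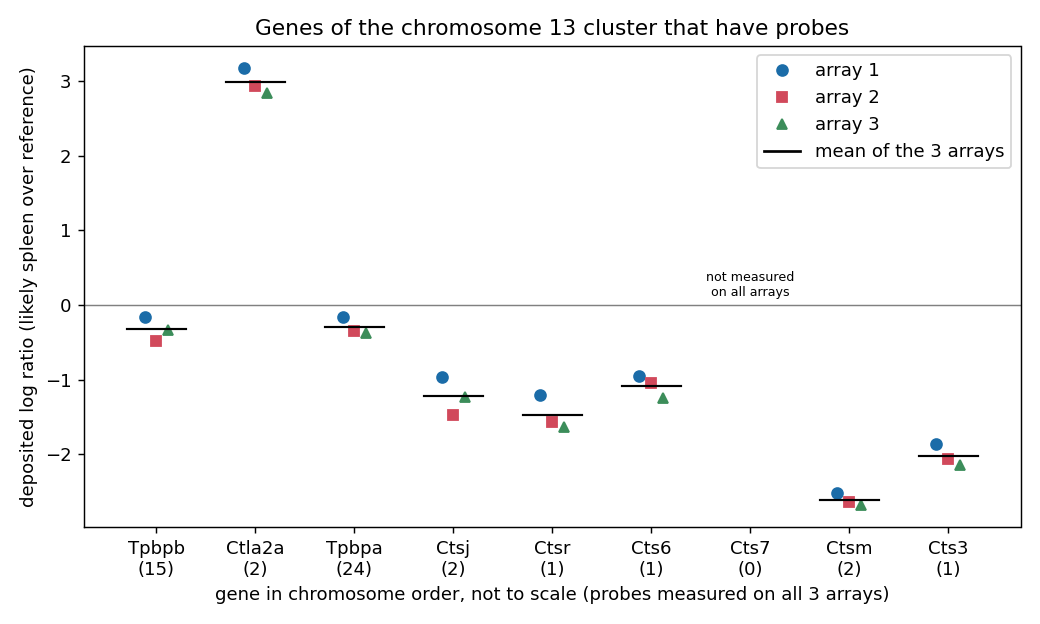
Log ratio on each array for the genes of the chromosome 13 cluster that have probes, in their order on the chromosome and not to scale, with a bar at the mean. Ctla2a is at 2.98 between Tpbpb and Tpbpa, which lie near -0.3, and the measured cathepsins lie between -1.08 and -2.61.

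Other trophoblast and placenta genes were mostly negative too. Of the 71 genes listed, 24 had a probe and 18 were measured on all arrays. Of these 12 were called negative and 1 positive, and 5 missed the threshold. The share called in either direction, 72.2%, was near the 70.3% of all 6077 genes tested. Among all genes 37.1% were called negative and 33.2% positive. The list's median was -0.48 beside -0.03 for all genes. Cts3 and Cts6 are among them. Plac1, a trophoblast protein needed for normal placental development, had -1.64, -1.73 and -1.23, with a mean of -1.53 ± 0.26 (SD, n = 3). Prl7d1, a placental member of the prolactin family, had -0.79, -1.08 and -1.07, with a mean of -0.98 ± 0.16 (SD, n = 3). Their limma adjusted p were 1.24e-05 and 3.15e-05. The gene called positive was the prolactin family member Prl3a1 at 0.44 ± 0.11 (SD, n = 3), which was named after its value was seen. With the running median over 5 probe numbers removed, Cts6 was at -0.64 and Prl3a1 at 0.23.

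By layer of the placenta, the markers measured were few. Of 4 measured spongiotrophoblast markers, Prl7b1 (-0.77) and Prl8a8 (-0.29) were called negative, Prl3a1 positive, and Prl5a1 (0.10) did not pass. The call of Prl8a8 ended with 0 kept (adjusted p = 0.106) and with running medians over 5 or 20 probe numbers removed (-0.15 and -0.04), and Prl7b1 was then at -0.18 and -0.40. Hand1, a transcription factor of giant cells, was the 1 giant cell marker measured and had 0.04, -0.13 and 0.17 on the 3 arrays, on both sides of 0. Ascl2, a transcription factor of the spongiotrophoblast lineage, was listed at 0 on all arrays, and none of the 4 labyrinth markers has a named probe here. The ratio does not give the level in either RNA.

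Cathepsins outside the placental cluster, which work mainly in lysosomes, went both ways. Of 8 measured, 3 were called positive and 3 negative, 2 missed the threshold, and the median was -0.04. The share called in either direction, 75%, was near the 70.3% of all 6077 genes tested. Ctsc, the activator of granule serine proteases, had 2.56, 2.16 and 2.42, and Ctso had 1.63, 1.69 and 1.76. Ctss, which trims the invariant chain in antigen presenting cells, had 1.25, 1.38 and 1.41. These 3 were positive on every array. Ctsz (-0.49), Ctsh (-0.48) and Ctsf (-0.34) were called negative on means of modest size. The call of Ctsz ended with 0 kept (-0.24, adjusted p = 0.0657) and with the running median over 5 probe numbers removed (-0.13), the settings that also moved Ctsc to 1.19 and Ctss to 0.80, in that order. Ctsd at -0.06 and Ctsk, the osteoclast collagenase, at -0.02 did not pass. Ctsl, the closest lysosomal relative of the placental enzymes, was listed at 0 by both its probes, as was Ctsa by its 1 probe, and Ctsb was measured on 1 array.

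The listed cystatins and cathepsin inhibitors were mostly positive. They were listed by gene family, and whether each inhibits a cathepsin was not tested. Of 6 measured genes 5 were called positive and 1 negative, with a median of 0.33. Among all 6077 genes tested, 33.2% were called positive, 37.1% negative and 70.3% in either direction. After Ctla2a came the stefin Stfa3, an inhibitor known from myeloid cells, with 0.81, 0.82 and 0.77 (mean 0.80), and the secreted inhibitor cystatin C, Cst3, with 0.35, 0.33 and 0.43 (mean 0.37). These values repeated closely between arrays. Cst9 (0.30) and Cst7 (0.23) were smaller, and Cst12 was negative at -0.23. The call of Cst7 ended without array 1 (adjusted p = 0.174) and without array 3 (0.136), and that of Cst12 without array 3 (0.101). With the running median over 5 probe numbers removed the calls of Cst9, Cst7 and Cst12 ended (0.08, 0.14 and -0.19) and Cst3 was at 0.84. Stefin B, Cstb, was measured on 2 arrays, with -1.42 and -1.51, and was not tested in the main run. With probes measured on at least 2 arrays included, 7 genes were tested, 5 called positive and 2 negative, Cstb among the latter. Under that setting 67.5% of 12228 probes were called in either direction, and the share of genes is not given here.

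**Figure D4:**
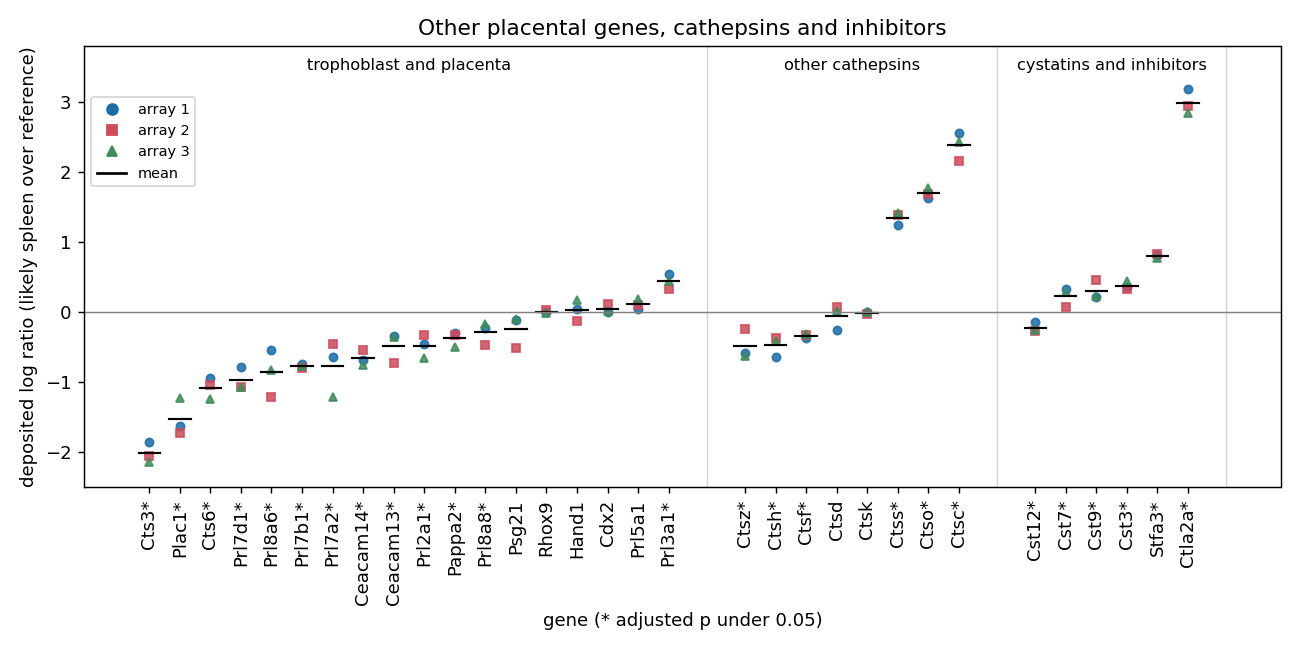
Log ratio on each array for the measured genes of 3 lists, with a bar at the mean and an asterisk where the limma adjusted p was under 0.05. Trophoblast and placenta genes run from -2.02 (Cts3) to 0.44 (Prl3a1), the other cathepsins from -0.49 to 2.38 (Ctsc), and the inhibitors from -0.23 to 2.98 (Ctla2a).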

How the data were processed

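The 3 two-colour arrays compare spleen RNA with a universal mouse reference RNA. The authors deposited 1 signed log ratio, on a scale with no stated base, per probe and array. Neither array type, background correction nor normalization is given in the sources used here. Symbols came from the supplied platform annotation (12397 probes, 12336 with 1 symbol and 61 with several); RefSeq IDs changed 0 symbols.

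An exact 0 was read as no measurement. Probes measured on all arrays (11086), and genes as the mean of such probes (6077), were compared with 0 in limma 3.58.1 under R 4.3.3 (intercept fit, moderated variance, two-sided, Benjamini-Hochberg over all probes or genes, threshold 0.05); the fit was tested on simulated data. Members and lists were chosen with earlier results of these data known. Each member probe is reported; from the trophoblast, other cathepsin, inhibitor and yolk sac lists the 4 genes of largest absolute mean are named, or all where 8 or fewer were measured. Likeness is the root mean square difference over arrays. Upstream sequences were aligned with Biopython 1.88 (match 1, mismatch -1, gap opening -2 and extension -0.5). Alternatives were centring, scaling, quantile normalization, robust or no moderation, an adjusted p under 0.01, a 1.5-fold test, probes on at least 2 arrays, 0 kept, running medians over 5 or 20 probe numbers removed, medians over probes, and leaving out each array. Figures used matplotlib 3.10.9.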

Additional observations from a re-analysis of the deposited data

How the results depend on the processing

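The gene ratios of Ctsm, Ctsr and Ctsj kept their sign and their call under every alternative run, and those of Tpbpa and Tpbpb kept their sign. Tpbpa (-0.30) and Tpbpb (-0.33) did not pass without moderation or against a 1.5-fold change, which leave the ratio itself as it was, and Tpbpb (-0.33) did not pass with 0 kept. Leaving out 1 array gave -0.36 to -0.25 for Tpbpa, which did not pass without array 3.

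Of the 44 member probes 32 passed. They were 72.7% beside 68.3% of all 11086 probes. The count was 16 without moderation (36.4% beside 41.6%), 17 at an adjusted p under 0.01 (38.6% beside 54.5%), 6 against a 1.5-fold change (13.6% beside 19.0%), 17 of 47 with 0 kept (36.2% beside 33.7%) and 21 with the running median over 5 probe numbers removed (47.7% beside 61.2%). Without moderation 4609 of all 11086 probes passed. By gene, 7 of 18 trophoblast genes (38.9%) and 3 of 6 inhibitors (50%) then passed. Against a 1.5-fold change 2104 of all 11086 probes passed. By gene, 5 of 18 trophoblast genes (27.8%), 3 of 8 other cathepsins (37.5%) and 2 of 6 inhibitors (33.3%) then passed. With the running median over 5 probe numbers removed 3 of 6 inhibitors passed. The share of all genes under these settings is not given here. With the running medians over 5 and 20 numbers removed, the sign turned for Tpbpa probe 5168 (0.24 and 0.014) and Tpbpb probe 3610 (0.31 and 0.26), for Cdx2 (-0.48 and -0.17) and for Hand1 (-0.45 and -0.12), and with 5 numbers also for Pappa2 (0.00041). A further 6 member probes with 5 numbers and 2 with 20, which passed neither before nor after, also turned, as did 4 without array 3, 3 without array 2, 2 with centring and 1 with quantile normalization. The running median includes the probe's own ratio and those of other member probes with nearby numbers. It can therefore remove real ratios, and the cause of these changes was not tested. No paired analysis was possible because the arrays form 1 group. Signal over background is unknown, so whether small ratios reflect dim probes was not tested.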

Other observations

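Of 8 listed markers of yolk sac and visceral endoderm, another source of extraembryonic RNA, 3 were measured on all arrays. Of these 2 were called positive and 0 negative, beside 33.2% and 37.1% of all 6077 genes. So few markers do not describe yolk sac RNA as a whole. The transthyretin gene Ttr had 2.03, 1.94 and 1.73 (mean 1.90) and the retinol binding protein gene Rbp4 1.14, 1.498 and 1.40 (mean 1.35), and both were called positive with limma. Both are also made in liver and other tissues. With 0 kept their means were 0.95 and 0.82. Amn, a partner of cubilin, had 0.12, -0.04 and 0.18 and did not pass, and all 3 probes of Afp, the alpha-fetoprotein gene, were listed at 0.

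Tpbpa and Tpbpb are among 12 genes with at least 10 measured probes. The SD of the probe means was 0.28 for each, the fifth and the fourth largest of the 12, below 0.48 for the beta globin gene Hbb-bs and above 0.21 for the alpha globin gene Hba-a1. All 14 Hbb-bs probes and all 11 Hba-a1 probes were called positive, so for the globins the probes differed in size and not in sign. Calls in both directions were not particular to Tpbpa and Tpbpb. Lipf had 3 negative and 17 positive calls, Hdgf 6 and 3, and 2310057J18Rik 10 and 2. The remaining genes of the 12, like the globins, had calls in a single direction.

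The 3 genes nearest in their values on the 3 arrays, by root mean square difference, were Bnip3 (0.119), Rhou (0.138) and Rhobtb3 (0.142) for Ctsm, Rsrc1 (0.0960), Ift81 (0.106) and Gbe1 (0.109) for Ctsr, and Pdgfra (0.0756), Nme2 (0.0991) and Tln2 (0.1198) for Ctsj. For Tpbpa they were Pfdn4 (0.0178), Tanc2 (0.0289) and Smim38 (0.0375), and for Tpbpb Srr (0.0340), Tfpt (0.0406) and Ccnf (0.0442). Likeness over 3 arrays of the same RNAs says that the ratios are of similar size.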
